A study of Mus musculus with 29 samples.

Results

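Trim66, Trim24, Trim28 and Trim33 encode the proteins of a small group within the tripartite motif (TRIM) family, and these 4 genes were taken by their symbols from the 24421 genes of the RNA-seq count tables of mouse embryonic stem (ES) cells. RNA was measured in 20 libraries, which formed 10 groups of 2 in 4 experiments, each with its own table. The chromatin immunoprecipitation samples of the series, 9 in number, were not used here. All groups shared the 129/Ola strain, were untreated, and were cultured with 15% serum on gelatin.

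The knockout experiment held wild-type (WT) cells and 2 lines labelled Trim66 Knockout, KO1 and KO2. The overexpression experiment held cells carrying a GFP vector and cells expressing a GFP-TRIM66 fusion. The Dax1 experiment held a control of WT genotype and cells with hairpin 1 (sh1) or hairpin 2 (sh2), both labelled Dax1 knockdown. The protein DAX1, product of the gene Nr0b1, is an orphan nuclear receptor without a classical DNA-binding domain and works largely by repressing other factors. The double knockdown experiment held a control of WT genotype and cells labelled Dax1 Dux double knockdown, where DUX is a homeobox activator of early embryonic genes. The title of the series places TRIM66, DAX1 and Dux on 1 axis that suppresses the 2-cell-like state of ES cells. The change made to Trim66, whether each line is 1 clone, the promoter of the transgene and the means of the double knockdown are not stated in the labels.

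Proteins of this group pair an amino-terminal RING, B-box and coiled-coil region, or a part of it, with a carboxy-terminal PHD finger and bromodomain, a module that reads or contacts chromatin. TRIM28, also called KAP1, is the common corepressor of KRAB zinc finger proteins, and it brings the H3K9 methyltransferase SETDB1, HP1 and the NuRD complex to retroelements and imprinted regions, a role for which it is well known in ES cells. TRIM24 acts on nuclear receptors and as a ubiquitin ligase for p53. TRIM33 works with SMAD proteins downstream of TGF-beta and Nodal signals, and mouse TRIM66 was described as an HP1-binding protein abundant in testis.

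The gene table of the GRCm38.p6 build placed Trim66 on chromosome 7 at 109449001 to 109516759 and Trim28 on the same chromosome at 13024152 to 13031032. Trim24 lay on chromosome 6 at 37870811 to 37968445, and Trim33 on chromosome 3 at 103279293 to 103358770. RefSeq windows of 300 bases, from 250 bases before to 50 after an annotated start, were available for 3 of the 4 genes, Trim33 having no entry in the table used. They are shown because the genes differed widely in read count and in the CG content of these windows. CG dinucleotides are in capitals, and each sequence is written 5′ to 3′ on the strand of its gene. The Trim66 window is chr7:109508085-109508384 on the minus strand, inside the annotated span of the gene, since other transcripts start further upstream. The Trim28 window is chr7:13023902-13024201 and the Trim24 window chr6:37870561-37870860, both on the plus strand.
Trim66: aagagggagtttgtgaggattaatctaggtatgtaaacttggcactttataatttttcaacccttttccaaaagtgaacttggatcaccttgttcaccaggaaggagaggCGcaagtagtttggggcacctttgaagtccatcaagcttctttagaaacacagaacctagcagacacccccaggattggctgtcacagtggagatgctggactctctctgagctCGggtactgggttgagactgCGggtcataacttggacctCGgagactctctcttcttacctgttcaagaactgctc
Trim28: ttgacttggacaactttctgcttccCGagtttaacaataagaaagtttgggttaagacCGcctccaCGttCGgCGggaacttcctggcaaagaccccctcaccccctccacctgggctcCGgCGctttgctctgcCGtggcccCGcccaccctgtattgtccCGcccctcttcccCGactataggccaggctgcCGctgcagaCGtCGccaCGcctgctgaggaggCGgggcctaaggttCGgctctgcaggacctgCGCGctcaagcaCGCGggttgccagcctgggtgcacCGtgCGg
Trim24: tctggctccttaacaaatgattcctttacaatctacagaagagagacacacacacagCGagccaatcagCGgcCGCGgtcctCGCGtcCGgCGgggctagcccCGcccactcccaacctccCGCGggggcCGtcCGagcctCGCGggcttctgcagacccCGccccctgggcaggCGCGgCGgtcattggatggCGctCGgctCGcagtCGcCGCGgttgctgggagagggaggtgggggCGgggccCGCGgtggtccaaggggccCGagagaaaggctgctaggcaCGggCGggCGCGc

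The Trim66 window held 4 CG dinucleotides and was 47% G and C, the Trim28 window 23 CG and 64%, and the Trim24 window 33 CG and 70.3%. A second annotated start of Trim24, further into the gene, had 1 CG in its window. The median over all 32851 windows was 7 CG, so Trim66 lay below it and the first starts of Trim28 and Trim24 above it. DAX1 is known to bind the orphan receptors NR5A2 and ESRRB, whose sites share the core AAGGTCA. That core was in none of the 4 windows on either strand, whereas 4.72% of all windows held it. The absence says only that these letters are not in these windows.

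**Figure D1:**
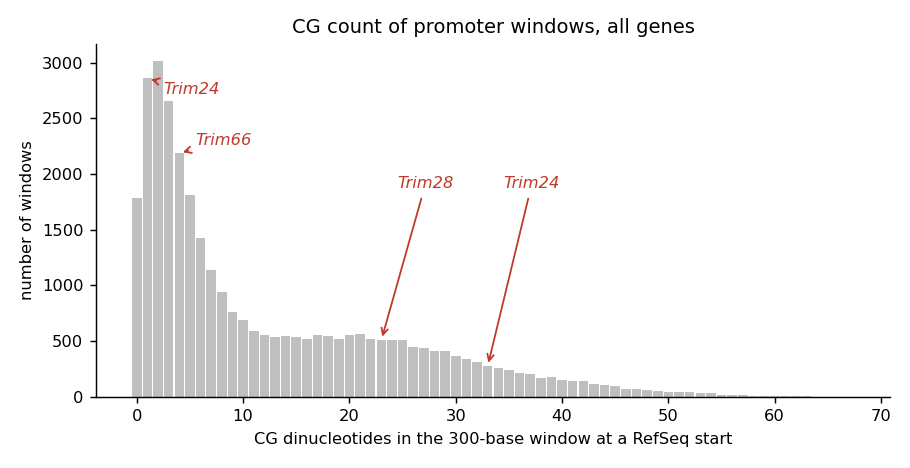
Number of RefSeq promoter windows (y axis) by their count of CG dinucleotides in 300 bases (x axis), over all 32851 windows. Arrows mark the windows of the members: Trim66 with 4 CG and the second Trim24 start with 1 lie in the low part, and Trim28 with 23 and the first Trim24 start with 33 in the upper part.

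Library totals ranged from 12483949 to 17365296 counts. Levels are CPM, read counts relative to the library total, scaled by the trimmed mean of M values (TMM) within each experiment, and spreads are the SD over libraries. Calls rest on edgeR's quasi-likelihood F test with Benjamini-Hochberg adjustment over all features tested in the comparison and a threshold of 0.05. The labels do not name separate cultures for the replicates, and p-values measure the spread between these libraries, which may be technical. Levels of different genes were not ranked, since transcript lengths were not used here. In these bulk samples, fewer cells with a transcript and less RNA per cell cannot be told apart.

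All 8 ES cell markers listed, among them Pou5f1 and Sox2, had counts in every library. A few libraries stood apart. GFP vector replicate 1 had the lowest level of Trim24, Trim28 and Trim33 among the 18 libraries without the transgene. Replicate 2 of the double knockdown control had the highest Trim66, and its summed fibroblast markers were 1011 CPM against 303 CPM in the other control. The ES cell markers of the double knockdown experiment summed to between 2762 and 4281 CPM, against 5390 to 8544 CPM in the other experiments. Fold changes of the 4 genes and medians of their partner lists that rest on these libraries are given with and without them. The variation between libraries that edgeR estimated also differed, with a biological coefficient of variation of 0.0392 in the Dax1 experiment, 0.102 in the knockout experiment, 0.189 in the double knockdown experiment and 0.283 in the overexpression experiment.

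Without the transgene, Trim66 was close to the limit of counting in these ES cells, whereas its relatives were well sampled. Over the 18 libraries without GFP-TRIM66, Trim66 had between 2 and 87 counts, or 0.134 to 6.57 CPM with a median of 1.08 CPM. Trim24 ranged from 101 to 201 CPM (median 158), Trim28 from 989 to 3473 CPM (median 2222) and Trim33 from 72.7 to 127 CPM (median 96.5). The coefficient of variation over these libraries was 98.6% for Trim66, 29.4% for Trim28, 20.7% for Trim24 and 13.1% for Trim33. Each relative therefore stayed within about a factor of 4 across the libraries, with Trim33 the steadiest by this measure. Most reads of the relatives came from Trim28, which made up 85.1% to 92.3% of the summed CPM of Trim24, Trim28 and Trim33. That sum was 2700 and 2638 CPM in wild type, and it ran from 1162 CPM in GFP vector replicate 1 to 3832 CPM in GFP-TRIM66 replicate 1.

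**Figure D2:**
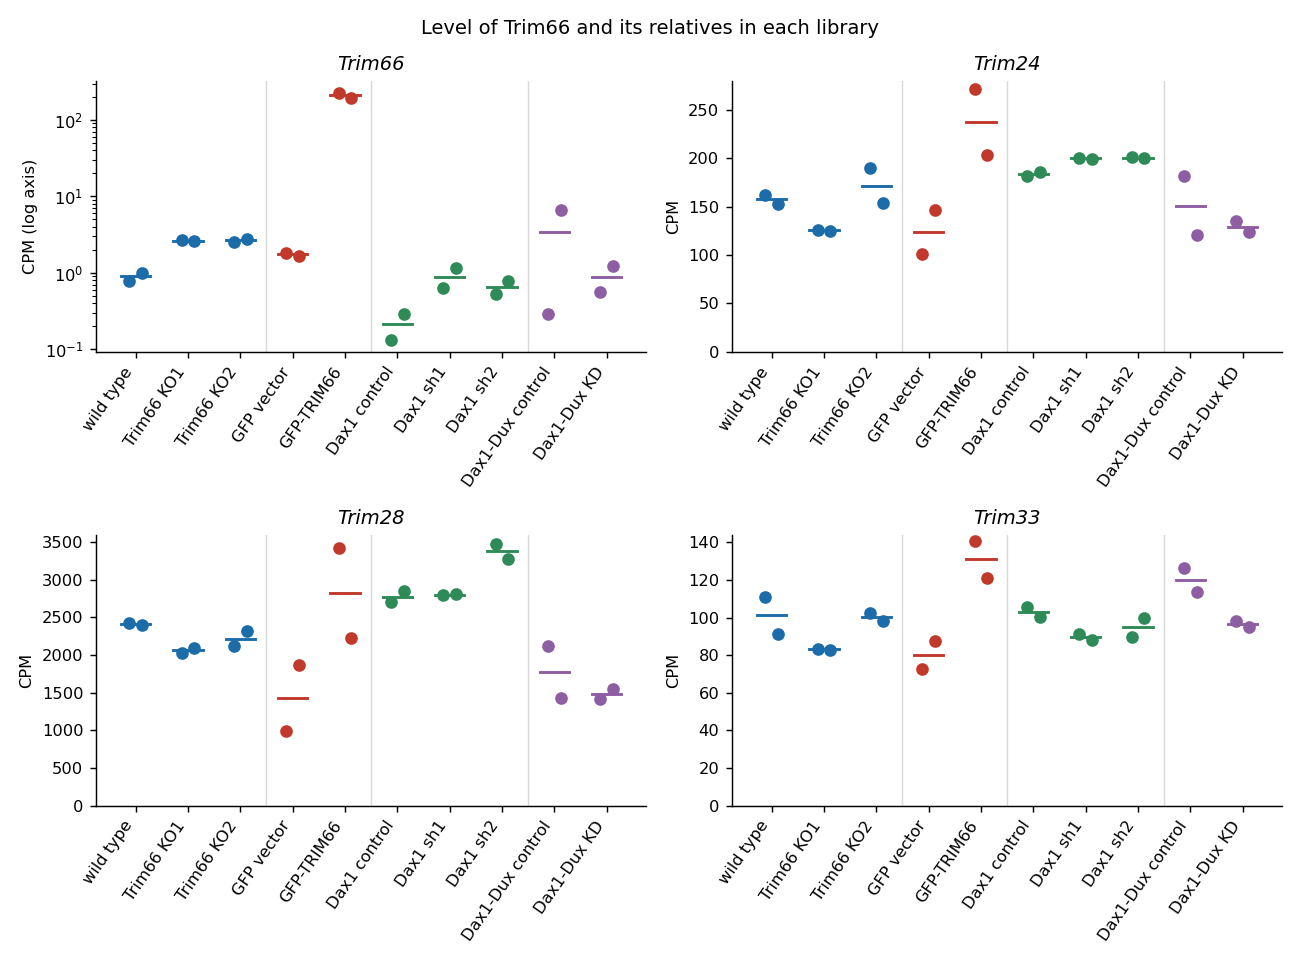
CPM of Trim66 (logarithmic axis) and of Trim24, Trim28 and Trim33 (linear axes from 0) in the 20 libraries. Each point is a library, each line the mean of the 2 libraries of a group, and colours mark the 4 experiments. Trim66 lies between 0.134 and 6.57 CPM outside the transgene group, where it was 223 and 196 CPM, and the 3 relatives are lowest in GFP vector replicate 1 (Trim28 at 989 CPM).

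The reads on the targeted gene were set beside the labels. The wild-type libraries held 11 and 15 reads on Trim66, those of KO1 35 and 38, and those of KO2 33 and 48. Every library labelled knockout had more Trim66 reads than either wild-type library. Their CPM ranges did not overlap, as for 18% of all features tested in this direction. In CPM the wild type had 0.788 and 1.01, KO1 had 2.65 and 2.60, and KO2 had 2.51 and 2.80. The mean of the libraries labelled knockout was 2.64 ± 0.123 CPM (SD, n = 4) against 0.897 ± 0.154 CPM (SD, n = 2) in wild type. The log2 fold change was 1.55 (SE 0.293, 95% interval 0.89 to 2.2, edgeR adjusted p = 0.00483), or 2.92-fold. Each line passed by itself, KO1 with 1.54 (edgeR adjusted p = 0.00628) where 31.2% of features were called, and KO2 with 1.56 (edgeR adjusted p = 0.0131) where 11.7% were. The call over both lines was lost without wild-type replicate 1 (log2 fold change 1.38, edgeR adjusted p = 0.0678), as was that of KO1 (edgeR adjusted p = 0.0598). That of KO2 was lost without either wild-type library (edgeR adjusted p = 0.113 and 0.0717). The gene-level count was thus higher in the lines labelled knockout. The labels do not state how Trim66 was changed, and the count does not show which exons the reads cover. It therefore cannot check the label. The lines did not differ from each other in Trim66 beyond the spread (log2 fold change of KO2 over KO1 0.02, 95% interval -0.60 to 0.64).

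Markers of other cell types moved in these libraries too. The 17 measured markers of 2-cell-like cells summed to between 1.81 and 2.51 CPM in wild type, 22.1 to 24.1 CPM in KO1 and 85.8 to 112 CPM in KO2, and 6 to 10 of the 17 had a count in the wild-type libraries against 15 to 17 in the others. KO2 was above KO1 in these markers. Fibroblast markers summed to between 158 and 170 CPM in wild type and between 259 and 307 CPM in the libraries labelled knockout. Of the 10 tested over both lines, 5 were called higher and 2 lower, 70% where 23.4% of all features were called. Those lower were Thy1 (log2 fold change -0.53, edgeR adjusted p = 0.00686) and Pdgfra (-1.13, edgeR adjusted p = 0.00793). The 10 male germ cell markers, from the lineage in which mouse Trim66 is abundant, summed to between 22 and 24.9 CPM in wild type and 29.5 to 65.1 CPM in the lines, and at most 5 of the 10 had a count in any of the 6 libraries. Only Sycp3 and Ldhc had enough counts to be tested. Sycp3 was called higher (log2 fold change 0.82, edgeR adjusted p = 0.00308) and Ldhc was not called (0.48, edgeR adjusted p = 0.407). In KO2 replicate 1, with the highest sum, all other markers of this list had 0 counts. The part of these cells in the Trim66 counts was not tested.

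None of the 3 relatives was called changed over both lines by edgeR, nor by DESeq2 or at an unadjusted p under 0.05, whereas edgeR called 23.4% of all features tested. For Trim28 the wild-type libraries had 2428 and 2394 CPM, the KO1 libraries 2031 and 2098 CPM and the KO2 libraries 2114 and 2323 CPM. All 4 libraries labelled knockout lay below both wild-type libraries, as did 16.5% of all features. The log2 fold change was -0.17 (95% interval -0.35 to 0.004, edgeR adjusted p = 0.148). Leaving out KO2 replicate 2 took Trim28 past the threshold (log2 fold change -0.22, edgeR adjusted p = 0.0165), where 35.3% of features passed.

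Trim24 stood at 162 and 153 CPM with the wild-type genotype, at 126 and 125 CPM with KO1 and at 190 and 153 CPM with KO2. KO1 lay below wild type and KO2 overlapped it, and the mean change was -0.10 (log2, 95% interval -0.32 to 0.11, edgeR adjusted p = 0.487). Without KO2 replicate 1, the library highest in Trim24, it was -0.19 (edgeR adjusted p = 0.0455), where 31.4% of features passed. In KO1 alone Trim24 fell by 0.33 on the log2 scale, at the edge of the threshold (edgeR adjusted p = 0.04996), where 13.8% of features fell. That call was lost on leaving out any of the 4 libraries it compares, with edgeR adjusted p-values between 0.106 and 0.223. The direct comparison of the lines gave a Trim24 level 1.37-fold higher in KO2 (log2 fold change 0.45, SE 0.113, edgeR adjusted p = 0.0185), where 23% of features differed. It was lost without KO1 replicate 1 or KO1 replicate 2 (edgeR adjusted p = 0.130 and 0.139).

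The wild-type values of Trim33 were 111 and 91.5 CPM, those of KO1 83.5 and 83.0 CPM, and those of KO2 102 and 98.0 CPM. The wild-type libraries spanned the KO2 values, and the log2 fold change over both lines was -0.15 (95% interval -0.36 to 0.06, edgeR adjusted p = 0.289). The sum of the 3 relatives was 2240 and 2305 CPM in KO1 and 2406 and 2575 CPM in KO2, each below the wild-type sums. Averaged over both lines, the upper ends of the 95% intervals stood at 1.08-fold for Trim24, 1.0-fold for Trim28 and 1.04-fold for Trim33. In KO2 alone they stood at 1.30-fold, 1.06-fold and 1.17-fold. Trim24 in KO2 averaged 172 CPM against 157 CPM in wild type (log2 fold change 0.12, edgeR adjusted p = 0.519), and it passed without KO2 replicate 2 (0.27, edgeR adjusted p = 0.0341), where 26.7% of features did.

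**Figure D3:**
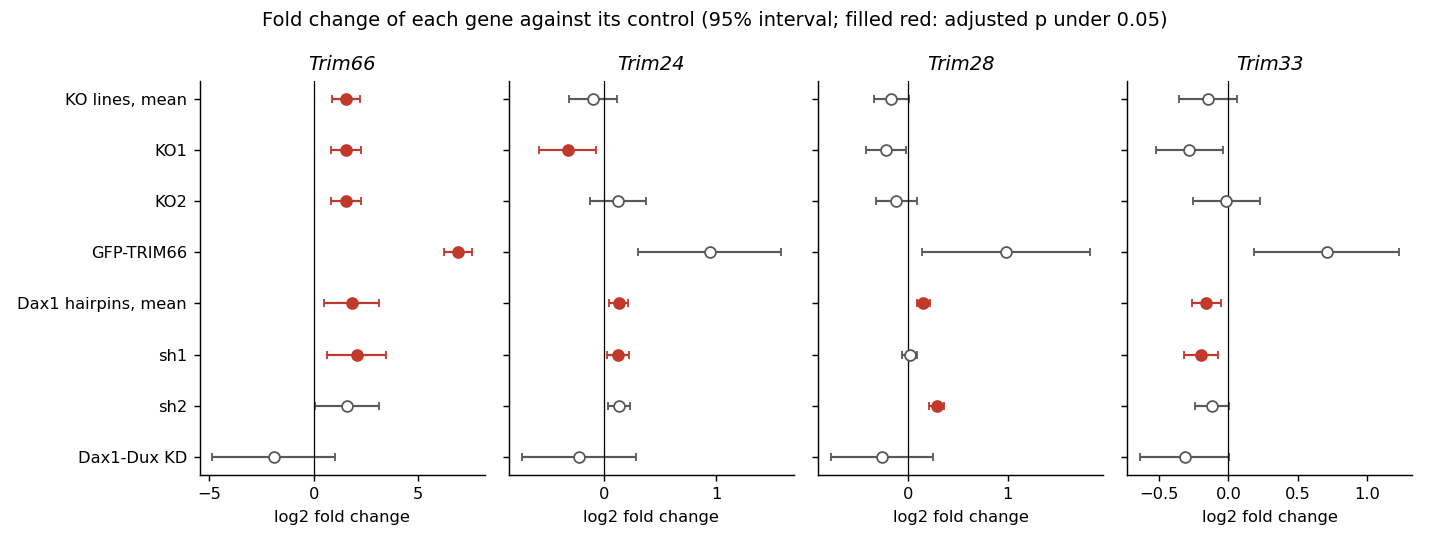
Log2 fold change of each gene (x axis, a scale of its own in each panel) against the control of its experiment, with 95% intervals from edgeR. Filled red points passed an adjusted p under 0.05. Trim66 was higher in the libraries labelled knockout (1.55) and under the Dax1 hairpins (1.82), while the relatives' points lie near 0 except with GFP-TRIM66, where they lie at 0.71 to 0.98 with wide intervals.

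Expression of GFP-TRIM66 raised the reads on Trim66 from 27 and 24 counts to 3556 and 3267. In CPM these were 1.80 and 1.68 with the vector and 223 and 196 with the transgene, a log2 fold change of 6.90 (95% interval 6.24 to 7.57, edgeR adjusted p = 5.39e-04). Reads of the transgene and of the endogenous gene are counted together. In this experiment 0.0199% of features were called, 3 of 15078.

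The 3 relatives were each higher with GFP-TRIM66 in every library, and none passed the test in edgeR or DESeq2, while all 3 had an unadjusted edgeR p under 0.05. The share of all features under that unadjusted p is not given here. Trim28 had 989 and 1868 CPM with the vector and 3420 and 2222 CPM with GFP-TRIM66, a log2 fold change of 0.98 (95% interval 0.14 to 1.83, edgeR adjusted p = 0.247). Trim24 had 101 and 146 CPM against 271 and 203 CPM, a log2 fold change of 0.94 (95% interval 0.30 to 1.58, edgeR adjusted p = 0.192). The Trim33 values were 72.7 and 87.4 CPM with the vector and 141 and 121 CPM with GFP-TRIM66, a log2 fold change of 0.71 (95% interval 0.18 to 1.24, edgeR adjusted p = 0.211). All 3 had ranges that did not overlap, as 24.1% of features did in this direction.

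The size of these differences turned on single libraries. Without vector replicate 1 the log2 fold changes were 0.70 for Trim24, 0.60 for Trim28 and 0.59 for Trim33 (edgeR adjusted p = 0.552, 0.654 and 0.662). Without vector replicate 2 they were 1.27, 1.55 and 0.89, and Trim24 and Trim28 passed the test (edgeR adjusted p = 0.0360 and 0.0201), where 4.83% of features did. Trim28 also passed without GFP-TRIM66 replicate 2 (1.28, edgeR adjusted p = 0.0251), where 3.86% did. Within each condition the libraries numbered 1 stood at the outer end for all 3 relatives. Markers of 2-cell-like cells summed to between 23.3 and 31.4 CPM with the vector and 2.94 to 4.83 CPM with GFP-TRIM66, in the direction opposite to the relatives. Nr0b1 moved with the relatives, with 557 and 1339 counts under the vector and 3236 and 1650 with GFP-TRIM66 (log2 fold change 1.21, edgeR adjusted p = 0.286). Their part in the result was not tested.

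The Dax1 hairpins lowered Nr0b1 from 2242 and 2179 counts in the control to 897 and 857 with sh1 and 1031 and 1008 with sh2, so the targeted gene followed its labels. Trim66 had 2 and 4 counts in the control, 9 and 17 with sh1, and 7 and 10 with sh2. All 4 hairpin libraries exceeded both controls, at 0.526 to 1.16 CPM against 0.134 and 0.290 CPM, as for 18.1% of features. Over both hairpins the log2 fold change was 1.82 (SE 0.640, 95% interval 0.51 to 3.14, edgeR adjusted p = 0.0281), where 34.6% of features were called and 16.8% rose. Pooled over libraries the ratio was 3.79, from 43 against 6 counts, with a 95% exact binomial interval of 1.61 to 10.9 that covers counting error only. Leaving out either control library, sh1 replicate 2 or sh2 replicate 2 ended the call, with edgeR adjusted p between 0.0716 and 0.250, and DESeq2 did not make it (adjusted p = 0.155). Of the single hairpins, sh1 passed (log2 fold change 2.05, edgeR adjusted p = 0.0168), where 43.4% of features were called, and sh2 did not (1.59, edgeR adjusted p = 0.122), where 25.1% were. The call of sh1 was lost without control replicate 1 or sh1 replicate 2 (edgeR adjusted p = 0.159 and 0.216). The hairpins did not differ from each other in Trim66 beyond their interval (-1.60 to 0.67, log2, sh2 over sh1).

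Markers of 2-cell-like cells summed to between 0.797 and 0.869 CPM in the Dax1 controls, 471 to 483 CPM with sh1 and 181 to 182 CPM with sh2. In the controls 7 of the 17 markers had a count, and with either hairpin all 17 did. Dux had 0 counts in both controls, 49 and 54 with sh1, and 14 and 26 with sh2. ES cell markers summed to between 6830 and 6915 CPM in the controls, 5390 and 5492 CPM with sh1, and 7117 and 7425 CPM with sh2. Fibroblast markers were at 263 to 267 CPM in the controls, 540 to 546 CPM with sh1 and 268 to 289 CPM with sh2. Of the 13 tested, 8 were called higher and 0 lower with sh1, 61.5% where 43.4% of all features were called. With sh2, 3 were called higher and 6 lower, 69.2% where 25.1% of all features were called. The part of these cells in the values of the 4 genes was not tested.

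The relatives moved by small amounts under the hairpins, in a set of libraries with little spread. Trim28 had 2703 and 2844 CPM in the control, 2792 and 2804 with sh1, and 3473 and 3278 with sh2. The sh2 libraries lay above all others and the sh1 libraries between the controls, so the mean change of 0.15 (log2, 95% interval 0.08 to 0.21, edgeR adjusted p = 5.95e-04) came from ranges that overlapped. Against the control, sh2 gave 0.28 (edgeR adjusted p = 1.17e-06) and sh1 gave 0.01 (edgeR adjusted p = 0.804). The direct test put sh2 1.21-fold above sh1 (log2 fold change 0.27, SE 0.0365, edgeR adjusted p = 1.18e-06), where 36.4% of features differed between the hairpins. Without control replicate 1 the mean change was 0.11 and no longer called (edgeR adjusted p = 0.0733).

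Trim24 had 182 and 185 CPM in the control and between 199 and 201 CPM in the 4 hairpin libraries. All hairpin libraries lay above both controls, as for 18.1% of features, and sh1 and sh2 overlapped. The rise was 1.09-fold (log2 fold change 0.13, 95% interval 0.04 to 0.21, edgeR adjusted p = 0.0193). Either control left out ended the call (edgeR adjusted p = 0.200 and 0.0932).

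Trim33 went the other way, with 106 and 100 CPM in the control, 91.2 and 88.3 with sh1, and 89.9 and 99.8 with sh2. All hairpin libraries were below both controls, as for 18.2% of features, with sh2 replicate 2 only just so, and the fold was 0.896 (log2 fold change -0.16, 95% interval -0.27 to -0.05, edgeR adjusted p = 0.0185), where 17.8% of features fell. That call was lost without control replicate 1 or sh2 replicate 1 (edgeR adjusted p = 0.223 and 0.0767). Under DESeq2, Trim28 alone of the 4 genes passed, with Trim24 at an adjusted p of 0.0947 and Trim33 at 0.0715. In 1 fit of all 20 libraries, whose shared estimate of the spread is larger than that of the Dax1 experiment, none of the 4 passed.

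In the double knockdown experiment none of the 4 genes was called by edgeR, nor by DESeq2 or at an unadjusted p under 0.05, and edgeR called 0.104% of features. Nr0b1 had 680 and 444 counts in the control and 254 and 319 in the double knockdown (log2 fold change -0.90, edgeR adjusted p = 0.275), and Dux had 0 counts in both controls and 2 and 0 in the double knockdown. Trim66 had 4 and 87 counts in the control and 7 and 16 in the double knockdown, so the double knockdown libraries lay between the controls. The log2 fold change was -1.93 (95% interval -4.86 to 1.01, edgeR adjusted p = 0.568). It turned to 1.59 without control replicate 2 (edgeR adjusted p = 0.213) and was -2.86 without control replicate 1 (edgeR adjusted p = 1.48e-09), where 8.09% of features were called. A direction for Trim66 in this experiment thus depended on a single control library. In that library, replicate 2, the 2-cell-like markers summed to 0.0755 CPM, with 1 of 17 having a count, and the male germ cell markers to 9.74 CPM, against 9.31 CPM in the other control, with the protamine genes Prm1 and Prm2 at 0 counts in both. Its fibroblast markers summed to 1011 CPM against 303 CPM, and its ES cell markers to 3076 CPM against 4281 CPM. The keratin genes Krt8 and Krt18 were also higher in it, at 1651 and 977 CPM against 258 and 125 CPM. The rise was thus not confined to the fibroblast list. A part of any of these cells in the Trim66 reads of that library was not tested.

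Trim24 and Trim28 likewise depended on single control libraries, while Trim33 stayed lower with either control left out. Trim28 had 2121 and 1425 CPM in the control and 1410 and 1549 in the double knockdown (log2 fold change -0.26, 95% interval -0.78 to 0.25, edgeR adjusted p = 0.640). Trim24 had 181 and 121 CPM against 135 and 123 CPM (-0.23, edgeR adjusted p = 0.680). For both genes control replicate 1 was above the double knockdown libraries, and control replicate 2 was at or below their level. Trim33 had 127 and 114 CPM against 98.0 and 95 CPM, ranges that did not overlap, as for 22.8% of features in this direction, and a log2 fold change of -0.32 (95% interval -0.64 to 0.004, edgeR adjusted p = 0.464). Without control replicate 2, Trim24 (-0.49), Trim28 (-0.52) and Trim33 (-0.39) all passed, with edgeR adjusted p-values of 2.04e-04, 2.70e-05 and 0.00503, in a fit that called 32.8% of features. Without control replicate 1 the values were 0.09, 0.05 and -0.24 and none passed. Fibroblast markers summed to between 1524 and 1547 CPM in the double knockdown, against 303 and 1011 CPM in the controls, and ES cell markers to between 2762 and 3071 CPM against 3076 and 4281 CPM. Their part in these values was not tested.

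The effect of the Dax1 hairpins and that of the double knockdown were compared in a fit of all 20 libraries. The difference for Trim66 was -3.71 (log2, 95% interval -6.56 to -0.86, edgeR adjusted p = 0.377), where 0.385% of features differed. The differences for Trim24, Trim28 and Trim33 were -0.32, -0.38 and -0.13, with edgeR adjusted p-values of 0.792, 0.810 and 0.898. These differences moved with the controls of the double knockdown. Without control replicate 2 the difference for Trim66 was -0.20 (edgeR adjusted p = 0.954), and without control replicate 1 it was -4.66 and passed (edgeR adjusted p = 0.00576), where 0.228% of features did. For Trim24 the values were -0.58 and -0.00262, for Trim28 -0.63 and -0.07, and for Trim33 -0.20 and -0.05, in the same order, and none of these passed.

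Partners of the family were examined through lists written from general knowledge. Counts of list members at an unadjusted p under 0.05 have no share of all features beside them. They are therefore not read as an excess. The 32 corepressor partners of TRIM28 hold the SETDB1, HP1, NuRD and SUMO genes with KRAB zinc finger genes known to act through TRIM28. All 32 were tested in each experiment. In the lines labelled knockout 1 rose and 6 fell, 21.9% of the list against 23.4% of all features, with a median log2 fold change of -0.06 against 0.01 over all features. Chd3, an ATPase of NuRD, fell by 0.87 (edgeR adjusted p = 8.02e-04), and Gatad2b, another NuRD subunit, fell by 0.77 (edgeR adjusted p = 0.00107). Zfp819, a KRAB zinc finger gene, rose by 0.50 (edgeR adjusted p = 0.0217).

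Under the Dax1 hairpins 4 of these partners rose and 13 fell, 53.1% of the list against 34.6% of all features, with a median of -0.09 against 0.01. Chd3 fell by 0.92 (edgeR adjusted p = 5.11e-09), the NuRD subunit Mta3 by 0.46 (edgeR adjusted p = 5.03e-09), Sumo2 by 0.53 (edgeR adjusted p = 5.23e-08) and Uhrf1, which guides maintenance DNA methylation, by 0.29 (edgeR adjusted p = 8.27e-07). With sh2, 3 rose and 7 fell against the control, 31.3% of the list where 25.1% of all features were called, and with sh1 3 rose and 18 fell, 65.6% where 43.4% were. With GFP-TRIM66 none passed in edgeR, 6 had an unadjusted p under 0.05, and the median was 0.30. The summed level of the 32 genes was 5160 and 6333 CPM with the vector and 7922 and 6382 CPM with GFP-TRIM66, so that, as for the relatives, the libraries numbered 1 lay at the outer ends. The median was 0.06 without vector replicate 1, with none passing, and 0.54 without vector replicate 2, with 2 rising where 4.83% of features were called. None passed in the double knockdown (median -0.22), where 3 had an unadjusted p under 0.05. Without its control replicate 2, 2 rose and 13 fell (median -0.25), where 32.8% of features were called, and without control replicate 1, 4 fell (median -0.10), where 8.09% were.

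Of the 19 partners of TRIM24 and TRIM33, which hold SMAD, retinoid receptor and p53 pathway genes, 18 were tested in the lines labelled knockout, where 3 rose and 8 fell, 61.1% of those tested against 23.4% of all features, with a median of -0.23. Foxh1, a partner of SMAD2 in Nodal signalling, rose by 1.2 (edgeR adjusted p = 3.77e-04). Smad5, Smad2 and Smad4 fell by 0.66, 0.38 and 0.32 (edgeR adjusted p = 0.00251, 0.00923 and 0.0187). Among the retinoid receptors Rarg rose by 0.70 (edgeR adjusted p = 0.00342) and Rxra fell by 0.78 (edgeR adjusted p = 0.00121).

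With the Dax1 hairpins 5 of 19 rose and 9 fell, 73.7% against 34.6% of all features, with a median of -0.06. Foxh1 rose by 0.63 (edgeR adjusted p = 2.82e-08), Mdm2, a p53 target and ubiquitin ligase, by 0.43 (edgeR adjusted p = 5.00e-08) and Rxra by 0.72 (edgeR adjusted p = 1.37e-06), while the corepressor Tgif1 fell by 0.30 (edgeR adjusted p = 4.22e-06). With GFP-TRIM66 none of 18 passed in edgeR, 8 had an unadjusted p under 0.05, and the median was 0.56, against -0.02 over all features. In the double knockdown none of 18 passed and 1 had an unadjusted p under 0.05, with a median of -0.12. With GFP-TRIM66 the median was 0.33 without vector replicate 1 and 0.85 without vector replicate 2. In the double knockdown it was -0.12 without control replicate 2 and -0.00964 without control replicate 1. That none passed holds for the fits with all libraries. Some members passed without vector replicate 2 or without control replicate 2, in fits that leave 1 library in a group.

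The other 62 TRIM genes of the tables served as a wider background for the family. In the lines labelled knockout 41 passed the filter on low counts, of which 8 rose and 6 fell, 34.1% against 23.4% of all features, with a median of -0.02. Trim67, which encodes a TRIM protein of the nervous system, went from 0 and 3 reads in the wild-type libraries to 51 and 59 with KO1 and 7 and 22 with KO2, and Trim6, an ES cell TRIM gene, fell by 0.49 (edgeR adjusted p = 0.00163). Trim12c rose by 1.01 (edgeR adjusted p = 0.00223), a value that is uncertain because close copies can share its reads. With the Dax1 hairpins 12 of 42 rose and 10 fell, 52.4% against 34.6% of all features, with Trim67 higher by 2.82 (edgeR adjusted p = 1.95e-08), from 8 and 12 counts in the control to 121 and 129 with sh1 and 30 and 45 with sh2. Trim8 fell by 0.51 (edgeR adjusted p = 3.40e-08) and Trim6 by 0.35 (edgeR adjusted p = 7.02e-07). In edgeR none of 41 passed with GFP-TRIM66 and none of 36 in the double knockdown, where 5 and 3 had an unadjusted p under 0.05. The median of these genes was -0.000248 with GFP-TRIM66, 0.00412 without vector replicate 1 and 0.000702 without vector replicate 2. In the double knockdown it was 0.05, with 0.04 without control replicate 1 and 0.13 without control replicate 2. Here too some genes passed without vector replicate 2 or without control replicate 2, so that none passed holds for the fits with all libraries.

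**Figure D4:**
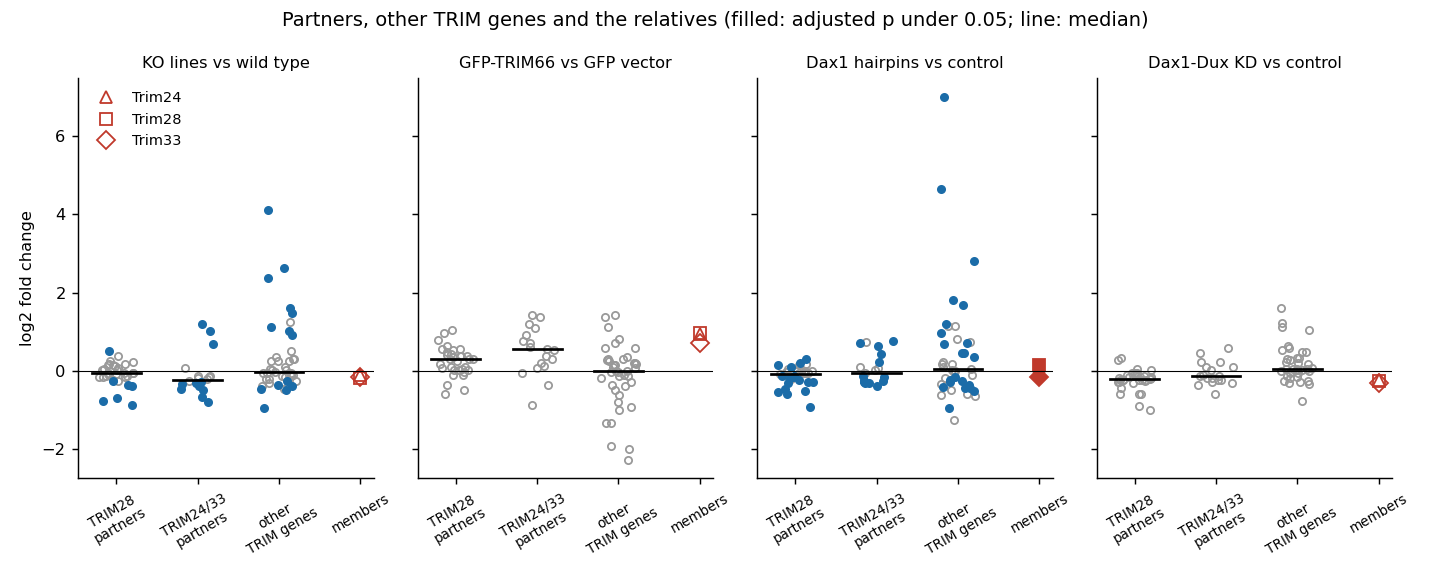
Log2 fold change (y axis) in the 4 experiments of the partners of TRIM28, the partners of TRIM24 and TRIM33, the other TRIM genes that passed the filter, and the relatives themselves (red symbols). Filled points passed an adjusted p under 0.05 and black lines are medians. The 3 relatives lie between -0.17 and 0.15 in the lines labelled knockout and under the hairpins, and with GFP-TRIM66 they lie above the medians of all 3 lists.

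Genes next to the members were looked at because nothing in the labels says whether strand was used in counting, and no neighbour examined overlapped a member. Only those of Trim66 are described. The closest was Rpl27a, at 109519195 to 109522369, which was also the most read, with 765 to 1809 CPM. Every library labelled knockout (1212 to 1410 CPM) exceeded the wild-type values of 1153 and 1166 CPM, as for 18% of all features. The rise of 0.19 (log2) was not called (edgeR adjusted p = 0.149). Hairpin libraries, at 1148 to 1300 CPM, spanned their controls (1204 and 1201 CPM). Around Trim66, Ric3 had 13.8 and 13.7 CPM in wild type, 6.96 and 4.46 CPM in KO1 and 14.6 and 14.3 CPM in KO2. It fell in KO1 (log2 fold change -1.27, edgeR adjusted p = 0.00152) and was not called in KO2 (0.07, edgeR adjusted p = 0.843). Under the Dax1 hairpins Ric3 rose by 0.39 (edgeR adjusted p = 0.0404), and St5 was at -0.04 in the lines and 0.09 under the hairpins and not called. Lmo1 had 4 and 3 counts in wild type and 8 to 17 in the lines, and 1 and 3 counts in the Dax1 control against 9 to 12 with the hairpins. Where Trim66 reached 87 counts, in the double knockdown control, Lmo1 had 4 counts and Stk33, another neighbour, had 0. Rpl27a had 902 CPM in that library, against 1031 CPM in the other control. A part of reads from neighbours in the Trim66 counts was not tested.

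Likeness across libraries was described by Pearson's r of log2 CPM after centring each experiment on its own mean, with no test. The libraries share their experiment, depth and scaling. Over 20 libraries and 10697 genes, Trim28 was most like Raver1, Psmc5 and Bop1 (r = 0.97 for each) and most opposite to Mapk9 and Tmod3 (r = -0.94 and -0.91). The genes closest to Trim24 were Xpo6, Cycs and Ipo4 (r = 0.95, 0.95 and 0.94), and Siae and AI414108 ran most opposite to it (r = -0.90 for each). For Trim33 the closest were Wbp11, Paxip1 and Crebbp (r = 0.95 for each), and the most opposite Ndrg4 and Cercam (r = -0.95 and -0.90). Among the relatives r was 0.89 for Trim24 with Trim28, 0.87 for Trim24 with Trim33 and 0.80 for Trim28 with Trim33. Outside the overexpression experiment, over 16 libraries, these fell to 0.63, 0.62 and 0.44. The closest genes changed too: they were Ddx11, Apex1 and Set for Trim28 (r = 0.93, 0.90 and 0.89), Rbm28, Smarca1 and Gnpda2 for Trim24 (r = 0.96, 0.92 and 0.91), and Zfp518a, Crebbp and Txlng for Trim33 (r = 0.94, 0.92 and 0.92), with Crebbp alone among the closest in both sets.

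For Trim66, over the same 16 libraries and 10638 genes, the closest were Commd3, Pafah2 and Whsc1l1 (r = 0.87, 0.86 and 0.83), and the most opposite were Tead2 and Tnfrsf1b (r = -0.89 and -0.85). Its r with Trim24, Trim28 and Trim33 was -0.38, -0.42 and -0.34. These values rest on the 2 to 87 reads of Trim66 in each library. The 87 reads were in replicate 2 of the double knockdown control, and r was not taken without that library.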

How the data were processed

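The values the authors deposited are whole-number read counts for genes and for subfamilies of transposable elements, in 1 table for each experiment. The submitters' processing notes name HISAT2 2.1.0, Cufflinks 2.2.1 and mm10 among the tools and builds of the series. Which program counted the reads, with which annotation and strand setting, and what was done with reads of several matches is not given in the sources used here. Each table has 25574 features, 1153 of them elements, and 27 of the 24421 gene rows carry a date in place of a name and were kept in the totals.

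The 4 tables were fitted separately in R 4.3.3 with edgeR 4.0.16 (TMM, filterByExpr, quasi-likelihood F test), on genes and elements together, and p-values were adjusted by Benjamini-Hochberg over every feature tested. An SE is the absolute log2 fold change over the square root of F. DESeq2 1.42.0, other scalings and filters, a fit of all 20 libraries, a replicate block and leaving out each library were alternatives. For the gene lists, leaving out libraries was chosen after seeing the data. The fit was tested on simulated data. Marker and list sums are TMM-scaled CPM. Likeness used a prior count of 2 and genes that averaged 5 CPM or more with a count in every library. Positions and promoter sequences came from RefSeq tables of GRCm38.p6, matched by symbol.

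The members and lists were chosen with earlier results of these data known. Named genes are the members, Nr0b1 and Dux, the called members of a list lowest in adjusted p, up to 6, other list members with a described role, the neighbours, the markers, and the 3 most like and 2 most opposite genes. Krt8 and Krt18 are named outside these lists.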

Additional observations from a re-analysis of the deposited data

Results flagged for a closer look

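The effect on Trim24 differed between the lines labelled Trim66 Knockout: KO2 stood above KO1 by a log2 fold change of 0.45 (edgeR adjusted p = 0.0185), with 190 and 153 CPM against 126 and 125 CPM. The effect on Trim28 differed between the Dax1 hairpins: sh2 stood above sh1 by 0.27 (edgeR adjusted p = 1.18e-06), with 3473 and 3278 CPM against 2792 and 2804 CPM. All 8 ES cell markers were also called higher with sh2 than with sh1, where 36.4% of all features differed. Their part in the Trim28 difference was not tested.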

How the results depend on the processing

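Counts below are how many of the 4 genes passed. Over both lines labelled knockout, 1 passed as reported, and 0 with a minimum mean of 5 CPM, which removes Trim66, or with all 20 libraries in 1 fit (Trim66 at 1.53). Of all features 23.4%, 24% and 10.4% passed, in that order. KO1 went from 2 to 0 under both of these settings, and KO2 from 1 to 0 under both and under DESeq2. The shares of all features were 31.2%, 32.6% and 16.5% in KO1, and 11.7%, 12.4%, 4.56% and 9.49% in KO2. KO2 against KO1 went from 1 to 0 in the fit of 20 libraries, where 9.05% of all features were called against 23% as reported. GFP-TRIM66 went from 1 to 4 in that fit (Trim24 0.96, Trim28 1.0, Trim33 0.72), where 24.2% of all features were called against 0.0199% as reported, and where the spread is shared with steadier experiments. The Dax1 hairpins went from 4 to 1 under DESeq2 (Trim66 1.84, Trim24 0.11, Trim33 -0.17) and to 0 in the fit of 20 libraries (Trim66 1.80, Trim24 0.10, Trim28 0.13, Trim33 -0.18). Of all features 34.6% were called as reported, 20% under DESeq2 and 4.19% in the fit of 20 libraries. sh1 alone went from 3 to 1 and to 0 under the same settings, with 43.4%, 25.3% and 9.3% of all features called. sh2 alone went from 1 to 2 with the 5 CPM minimum, with genes alone or with the replicate block, and to 0 in the fit of 20 libraries, as did sh2 against sh1 from 1. For sh2 the shares of all features were 25.1% as reported, then 29.9%, 25.6%, 27.7% and 1.37% in the order named. For sh2 against sh1 they were 36.4% as reported and 4.68% in the fit of 20 libraries. The comparison of the Dax1 with the double knockdown effect went from 0 to 1 with no filter on low counts (Trim66 -3.71, edgeR adjusted p = 0.0221). There 0.932% of all features were called against 0.385% as reported.

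The deviations of same-numbered libraries showed no pairing shared by all groups of an experiment. Their correlations were 0.056, 0.216 and 0.044 in the knockout experiment, 0.024, 0.006 and 0.031 in the Dax1 experiment, 0.025 in the double knockdown and -0.547 in the overexpression experiment. The highest was between wild type and KO2, and the libraries were taken to share only a number. With the replicate block 2 genes passed for sh2 (Trim24 at 0.13), and Trim33 in KO1 passed at -0.28. In these comparisons 27.7% and 35.8% of all features were called. The crossed pairing of the overexpression libraries, chosen after seeing the data, called all 4 (Trim24 0.95, Trim28 1.02, Trim33 0.71), with 27.3% of features.

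Leaving out 1 library at a time left a group with 1 library, so numbers of genes passing are not compared here. Several calls were lost in such fits, as given with the genes above. The log2 fold changes ranged as follows. Over both knockout lines Trim66 was 1.38 to 1.72, Trim24 -0.19 to -0.0429, Trim28 -0.22 to -0.14 and Trim33 -0.30 to -0.00832. With GFP-TRIM66, Trim24 was 0.70 to 1.27, Trim28 0.60 to 1.55 and Trim33 0.59 to 0.89. Over the Dax1 hairpins Trim66 was 1.36 to 2.43, Trim24 0.11 to 0.14, Trim28 0.11 to 0.18 and Trim33 -0.20 to -0.12. In the double knockdown Trim66 was -2.86 to 1.59, Trim24 -0.49 to 0.0944, Trim28 -0.52 to 0.0539 and Trim33 -0.39 to -0.24.

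Directions near 0 turned in a few settings. Trim33 in KO2 was 0.00326 with the 5 CPM minimum and -0.15 to 0.13 on leaving out single libraries. On leaving out single libraries Trim24 in KO2 was -0.0396 to 0.27, and Trim66 in KO2 against KO1 was -0.0457 to 0.0966. Trim28 in sh1 was -0.00501 with no filter, -0.0201 in the fit of 20 libraries and -0.0303 to 0.0439 without single libraries. In sh2 against sh1, Trim24 was -0.00293 with DESeq2's size factors and -0.0331 with the 5 CPM minimum, and Trim66 was -0.83 to 0.0433 without single libraries. No scaling moved the median of all features by over 0.1 (log2). Trim66's few reads limit every statement on it, and 2 libraries a group limit all others.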
